A study of Mus musculus with 11 samples.

Results

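Csf2, Il3 and Csf1 encode colony-stimulating cytokines, Osm and Lif encode ligands that signal through gp130, and Il6st and Il6ra encode gp130 itself and the IL-6 receptor α chain. All probes annotated with these symbols were taken. They numbered 15 probes for 7 genes, out of 45281 probes and 19057 named genes on the array. Of the 15 probes, 5 were above background often enough to be tested, and they covered Csf2, Csf1, Osm and Il6st. None of these 5 was called different between Il23r-/- and wild type (WT) T cells at a limma adjusted p under 0.05, while 1.78% of all 18003 tested probes were called.

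RNA came from CD4 T cells positive for the T cell receptor β chain, sorted from colonic lamina propria. The 6 WT samples and 5 Il23r-/- samples are on the C57BL/6 strain per the labels. Naive CD4 T cells of both genotypes had been transferred together into Rag1-/- mice, which make no T or B cells of their own but keep their innate immune cells. The cells were taken once colitis was apparent and told apart by congenic markers, so that WT and knockout cells shared the same inflamed hosts. The sources used here give neither the age nor the number of the recipients. Samples of 1 genotype are not stated to come from different mice, so each p-value reflects only the variation among these arrays, part of which may be technical. By its title, the study compared the genotypes to find target genes of IL-23, a cytokine that acts on T cells through the receptor chain encoded by Il23r.

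Granulocyte-macrophage colony-stimulating factor (GM-CSF), the product of Csf2, is secreted by activated T cells and drives the growth and activation of myeloid cells. GM-CSF and IL-3 share a receptor β chain, while the product of Csf1 acts on a separate receptor tyrosine kinase of macrophages. IL-6, oncostatin M and leukemia inhibitory factor each bind a receptor complex that contains gp130, which signals through JAK kinases and STAT3. IL-23 is known as an inducer of GM-CSF in T cells that cause autoimmune inflammation, and oncostatin M is known for its action on stromal cells of the inflamed colon.

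Each array gave 1 colour of intensity, with a median between 107.6 and 176.7 and between 17309 and 18440 probes above background (detection p under 0.05). The number of arrays limits the precision. Levels are log2 values after background correction and quantile normalization. An offset of 16 in that step makes differences of dim probes smaller, so a level near 5 is that of a probe at background. The 7 analysed T cell markers, among them Cd3e, Cd3g, Thy1 and Cd4, were above background on all 11 arrays. Of 9 analysed myeloid markers, 5 were above background on every array, while Itgam and Itgax were above background on no array. Lyz2 was at 9.34 in WT and 9.55 in knockout cells, and Lyz1, the brightest, at 10.98 and 11.42. Summed over the 9 markers, the linear level ran from 2927 to 8280 in WT and from 4869 to 7763 in knockout samples, so that the genotypes overlapped. Lyz1 weighs most in this sum, which need not measure myeloid cells alone. None of the 6 tested myeloid markers was called. Of the CD8 genes, Cd8a was above background on no array and Cd8b1 on all 11 (10.52 in WT and 10.34 in knockout cells). Among analysed stromal markers Col1a1, Col3a1 and Pdgfrb, and among epithelial markers Epcam, Vil1 and Krt19, were above background on no array. The stromal gene Dcn was above background on 9 arrays, and the epithelial gene Krt8 and the endothelial gene Pecam1 on all 11. In sorted bulk samples, fewer cells of a type and less RNA per cell cannot be told apart.

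Csf2 was well expressed in both genotypes, and loss of the IL-23 receptor was not accompanied by a detectable change in its transcript. Its single probe (ILMN_2749412) was above background on all 11 arrays, with raw intensities between 957.0 and 2811.6. The 6 WT levels had a lowest value of 9.76, a median of 10.47 and a highest value of 10.74. In knockout samples 1 to 5 the level was 10.95, 10.42, 10.52, 10.37 and 10.30. The groups overlapped, and the lowest and the highest value came from WT sample 2 and knockout sample 1. The means were 10.37 ± 0.33 (SD, n = 6) for WT and 10.51 ± 0.26 (SD, n = 5) for knockout cells. The log2 difference, knockout minus WT, was 0.15 ± 0.16 (SE), with a limma adjusted p of 0.678. Its 95% confidence interval ran from -0.20 to 0.50, which is from 0.869-fold to 1.41-fold. The difference was 0.03 without WT sample 2 and 0.04 without knockout sample 1, so that much of the small positive value came from those arrays. WT sample 2, the lowest for Csf2, also had the highest summed level of myeloid markers (8280). WT sample 3, with the next highest sum (7807), had the highest WT level of Csf2 (10.74). The part of myeloid cells in these values was not tested.

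**Figure D1:**
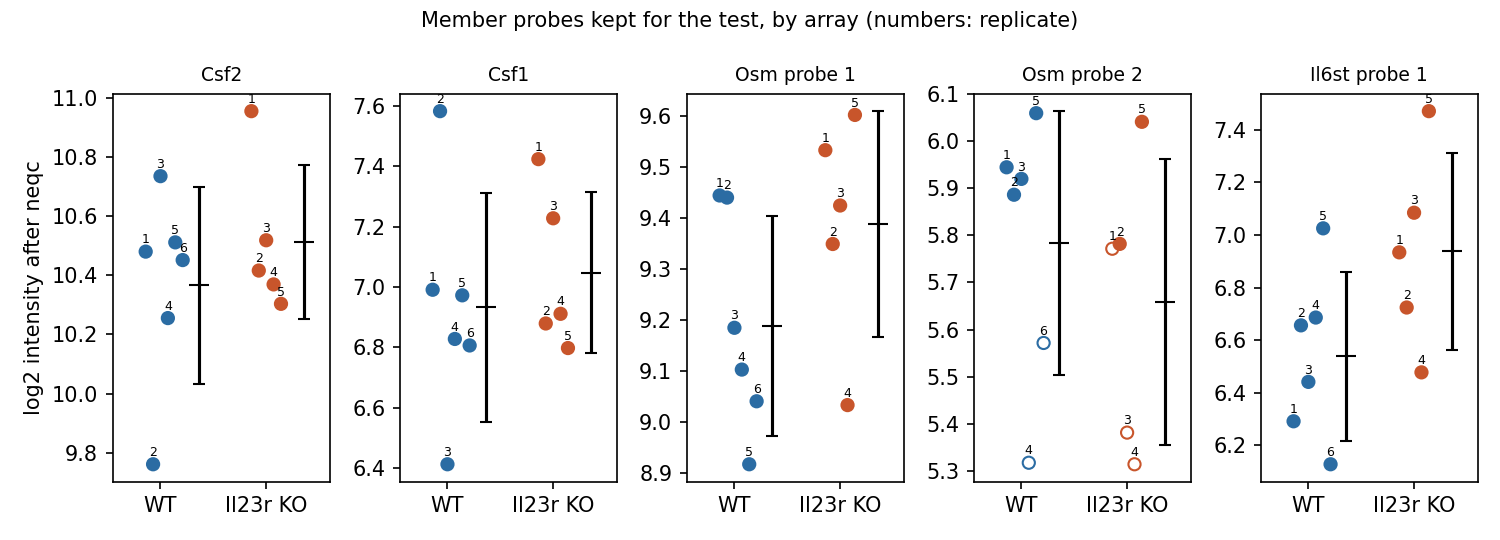
Log2 intensity after background correction and quantile normalization (vertical axis, a separate scale in each panel) of the 5 tested probes in 6 WT and 5 Il23r knockout (KO) samples; points are arrays with their replicate number, open where the detection p was 0.05 or above, and bars are mean ± SD. The genotypes overlapped for each probe, and Csf2 sat between 9.76 and 10.95.

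Il3, the neighbour of Csf2, was not detected. The genes lie next to each other on chromosome 11, with 0 protein-coding genes between them in the RefSeq table. Of the 11 arrays, 0 showed its probe (ILMN_1247309) above background. Raw intensities lay between 88.3 and 168.2 and levels between 4.70 and 5.11. In the fit without the detection filter its log2 difference was 0.07 ± 0.08 (SE), with a limma adjusted p of 0.853. Such a value says only that this probe was not above background. It gives no fold and no order between the genotypes. The annotated start regions of this pair are shown because the neighbouring genes differed in detection. Each is the RefSeq window of assembly GRCm38.p6, from 250 bases before to 50 bases after the annotated start of the gene, read 5′ to 3′ on the minus strand. Capitals mark GGAAA, the core bound by NFAT and Rel factors, or its reverse complement TTTCC.
Csf2 (chr11:54249850-54250149): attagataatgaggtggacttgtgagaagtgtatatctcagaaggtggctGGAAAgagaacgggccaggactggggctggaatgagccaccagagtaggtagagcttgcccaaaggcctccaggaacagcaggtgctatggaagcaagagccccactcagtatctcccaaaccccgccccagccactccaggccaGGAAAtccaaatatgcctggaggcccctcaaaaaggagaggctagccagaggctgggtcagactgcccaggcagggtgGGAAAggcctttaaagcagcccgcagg
Il3 (chr11:54267230-54267529): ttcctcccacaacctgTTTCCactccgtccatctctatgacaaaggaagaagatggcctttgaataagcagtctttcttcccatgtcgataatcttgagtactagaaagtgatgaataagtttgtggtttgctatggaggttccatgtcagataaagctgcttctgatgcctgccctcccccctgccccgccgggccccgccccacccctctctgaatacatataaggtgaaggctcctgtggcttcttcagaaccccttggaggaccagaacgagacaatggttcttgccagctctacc
The Csf2 window held 3 matches to GGAAA and the Il3 window held 1 match, searched on both strands, while 61.3% of 32851 such windows hold at least 1. Neither window held a match to TGANTCA, the AP-1 motif (7.8% of windows), to TTCNNNGAA, the STAT motif (8.3%), or to TATAAA (13.6%). These letters were sought in the listed window alone, and a transcript can start elsewhere. Variants of the letters, such as TATAAG in the Il3 window, were not counted. For Csf2 the annotated start may be that of a predicted transcript upstream of the main start, so its count may not describe its main promoter.

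Csf1, the gene for macrophage colony-stimulating factor, was expressed at a low level in both genotypes. Its probe (ILMN_1254561) was above background on all 11 arrays. The WT levels had a lowest value of 6.41, a median of 6.90 and a highest value of 7.58. The knockout levels in samples 1 to 5 were 7.42, 6.88, 7.23, 6.91 and 6.80. All 5 knockout values lay within the WT range. The means were 6.93 ± 0.38 (SD, n = 6) and 7.05 ± 0.27 (SD, n = 5), a log2 difference of 0.12 ± 0.18 (SE) with a limma adjusted p of 0.775 and a 95% confidence interval from -0.27 to 0.50. The difference was 0.25 without WT sample 2, 0.01 without WT sample 3 and 0.02 without knockout sample 1. WT sample 2 was the highest for Csf1 and, as above, for the summed myeloid markers. WT sample 3, with the next highest sum (7807), had the lowest Csf1 level of all arrays (6.41). The part of myeloid cells in these values was not tested.

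Among the ligands of the gp130 family, Osm was detected and Lif was at background. Osm encodes oncostatin M. Its brighter probe (Osm probe 1, ILMN_2919411) was above background on all 11 arrays. It had a lowest WT level of 8.92, a median of 9.14 and a highest level of 9.44. The knockout levels in samples 1 to 5 were 9.53, 9.35, 9.42, 9.03 and 9.60. Knockout samples 1 and 5 lay above the WT range, and the others lay within it. The means were 9.19 ± 0.21 (SD, n = 6) and 9.39 ± 0.22 (SD, n = 5), a log2 difference of 0.20 ± 0.12 (SE) with a limma adjusted p of 0.423 and a 95% confidence interval from -0.07 to 0.47. The dimmer Osm probe 2 (ILMN_2543107) was above background on 4 of 6 WT and 2 of 5 knockout arrays. Its levels ran from 5.32 to 6.06 in WT and from 5.31 to 6.04 in knockout cells, nearly the same span. Its log2 difference was -0.13 ± 0.16 (SE) with a limma adjusted p of 0.72, so that the probes of Osm differed in sign and neither passed.

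Lif, the gene for leukemia inhibitory factor, lies next to Osm on chromosome 11, with 0 protein-coding genes between them. It had 5 probes, of which 4 were above background on no array. Lif probe 1 (ILMN_3137291) was above background on 1 array, knockout sample 3. Raw intensities of the 5 probes ran from 79.0 to 197.4 and levels from 4.61 to 5.77. In the fit without the detection filter, 4 of the 5 log2 differences were positive, between 0.05 and 0.31. The largest was that of Lif probe 2 (ILMN_3137287), at 0.31 ± 0.09 (SE) with a limma adjusted p of 0.202. Its knockout levels (5.08 to 5.59) and WT levels (4.84 to 5.09) overlapped at background, so they give no fold.

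The receptor chains followed the same split, with Il6st detected and Il6ra mostly at background. Il6st encodes gp130, the signalling chain shared by the family. Its brighter probe (Il6st probe 1, ILMN_2608184) was above background on all 11 arrays. It had a lowest WT level of 6.13, a median of 6.55 and a highest level of 7.03. The knockout levels in samples 1 to 5 were 6.93, 6.72, 7.08, 6.48 and 7.47. Knockout samples 3 and 5 lay above the WT range, and the others lay within it. The means were 6.54 ± 0.32 (SD, n = 6) and 6.94 ± 0.38 (SD, n = 5). The log2 difference of 0.40 ± 0.18 (SE) was the highest among the tested member probes and had a limma adjusted p of 0.274. Its 95% confidence interval, which takes no account of the number of probes tested, ran from 0.01 to 0.79, or from 1.01-fold to 1.73-fold. It was the 1 tested probe of 5 with an unadjusted p under 0.05, where 0 passed after adjustment. Such a p was common, since 3022 of all 18003 tested probes had one as low or lower. The difference was 0.27 without knockout sample 5, and 0.19 on the authors' log2 values. Il6st probe 2 (ILMN_2452075), annotated to the same transcript, was above background on no array (levels from 4.63 to 4.97) and so does not bear on that difference.

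Il6ra encodes the chain that binds IL-6 and hands it to gp130. Its 3 probes had raw intensities from 84.8 to 192.3. Il6ra probe 1 (ILMN_1216057) was above background on 1 of 6 WT and 1 of 5 knockout arrays, in sample 2 of each genotype, and the other probes on no array. Levels of Il6ra probe 1 ran from 5.15 to 5.94 in WT and from 5.49 to 5.88 in knockout cells. The log2 differences of the 3 probes in the fit without the detection filter were 0.19, -0.01 and 0.21, with limma adjusted p of 0.673, 0.982 and 0.379. A difference in Il6ra was therefore not detectable at this signal.

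**Figure D2:**
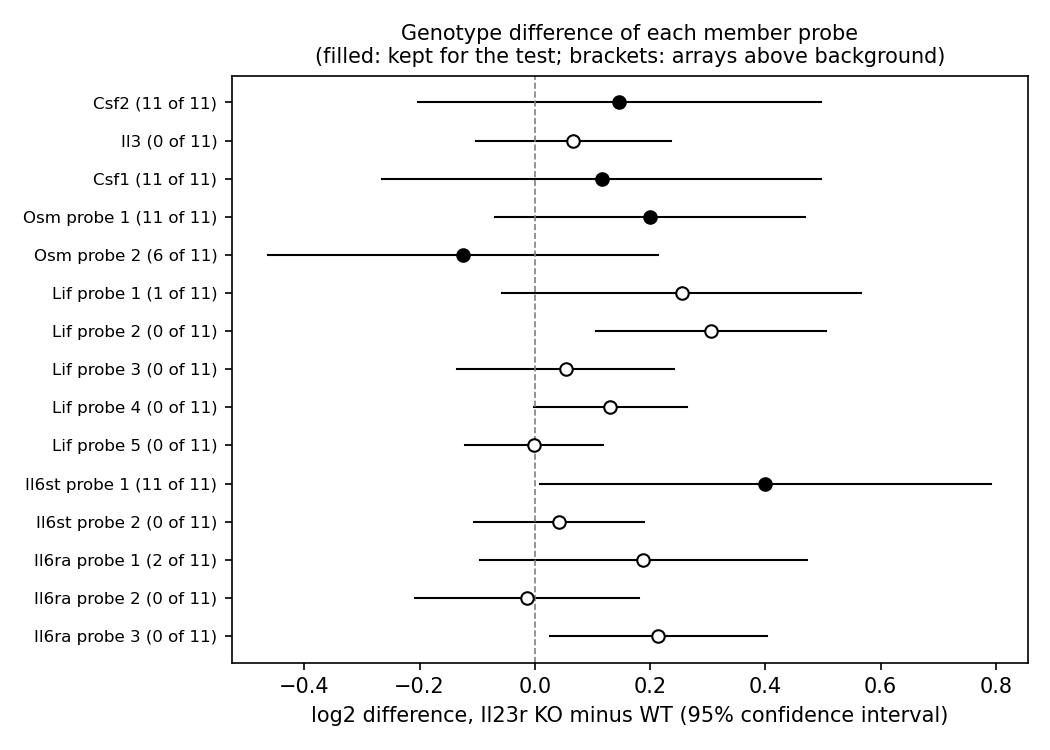
Log2 difference, Il23r KO minus WT, of each of the 15 member probes (points) with its 95% confidence interval not adjusted for the number of probes (lines); filled points were tested among the 18003 kept probes, open points come from the fit of all 45281 probes, and brackets give the arrays above background out of 11. Most points sit slightly right of 0, but the open ones come from probes at or near background, whose signs are not read. The point of Il6st probe 1 (0.40) is the highest.

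Of the 5 tested member probes, 4 had a positive log2 difference. Over all tested probes 48.5% were positive, with a median of -0.01. The median of the 5 tested member probes was 0.15. The 5 tested probes share arrays and in the case of Osm a gene, so this count is a description. For 0 of the 5 tested probes did the arrays of the genotypes stand apart without overlap, against 3.21% of all tested probes. Of the 10 member probes that were not tested, 8 had a positive difference. They lay at or near background, so their signs are not read.

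**Figure D3:**
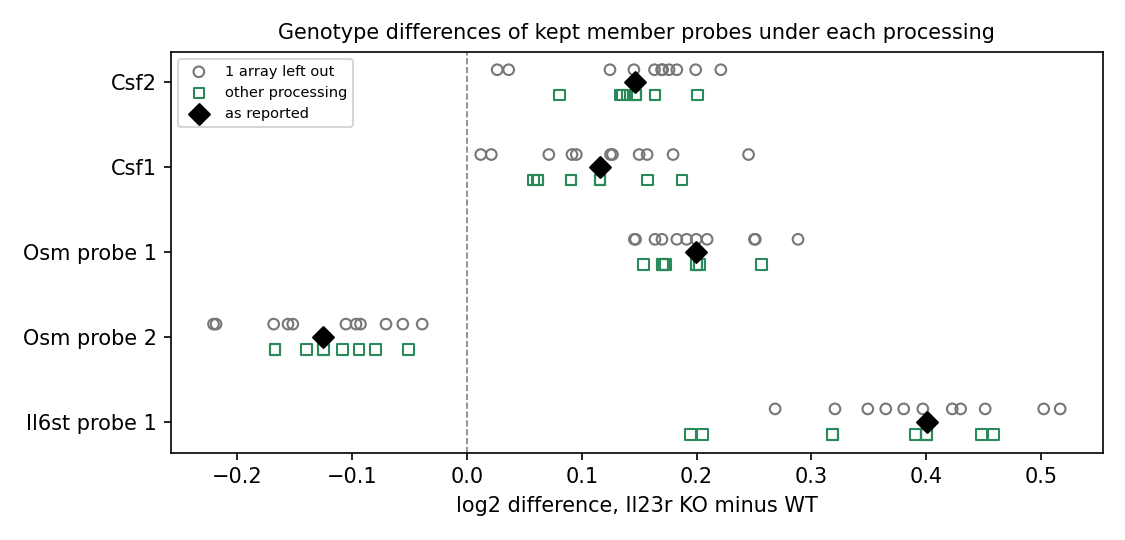
Log2 difference, Il23r KO minus WT, of the 5 tested member probes as reported (diamonds), with 1 array left out (circles) and under other processing (squares). Each probe kept its sign in each fit shown, and the values for Csf2 and Csf1 came close to 0 when single arrays were left out.

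Csf2 was then set beside other cytokine genes of T cells. For each array the log2 level of Csf2 was subtracted from that of Il17a, Il17f, Il4 or Ifng. The choice of these 4 genes was made with their genotype differences known, so the values are a description and carry no test. Il17a and Il17f encode IL-17 cytokines, Il4 the type 2 cytokine, and Ifng the type 1 cytokine interferon γ. Relative to Csf2, Il17a was between -2.02 and -0.33 in WT and between -0.49 and 1.06 in knockout samples. Knockout sample 1 was the single knockout array that fell into the WT range, and the genotype difference of Il17a exceeded that of Csf2 by 1.64 ± 0.37 (SE) on the log2 scale. Il4 relative to Csf2 ran from -2.65 to -0.03 in WT and from -0.22 to 1.34 in knockout samples, an excess of 1.63 ± 0.47 (SE) with overlapping ranges. All 5 knockout arrays but only 1 WT array detected the Il17f probe. It therefore passed the detection filter through the knockout samples, its WT values lie near background, and no size is read from its difference. Ifng relative to Csf2 ran from 2.51 to 3.36 in WT and from 2.91 to 3.35 in knockout samples, and its difference exceeded that of Csf2 by 0.14 ± 0.14 (SE).

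**Figure D4:**
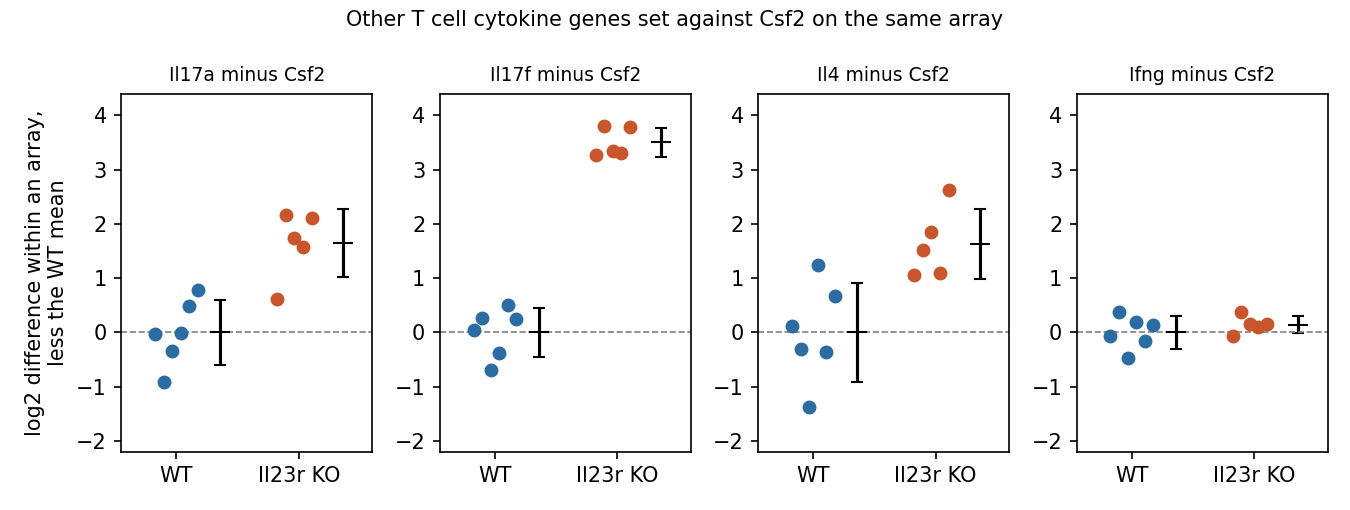
Log2 level of Il17a, Il17f, Il4 and Ifng minus that of Csf2 on the same array, less the WT mean of that difference (vertical axis), in 6 WT and 5 Il23r KO samples; points are arrays and bars are mean ± SD. The knockout mean lies higher for Il17a (by 1.64) and Il4 (by 1.63) and near the WT mean for Ifng (0.14); WT values of Il17f were near background on 5 of 6 arrays, so its distance has no readable size.

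The other genes of both pathways were described from 4 lists, holding 39 genes of which 37 had a probe under their name and 22 were tested. Each gene was read by its brightest tested probe. By that probe, 0 of the 22 passed in either direction at a limma adjusted p under 0.05, and 4 had an unadjusted p under 0.05. At least 3022 of all 18003 tested probes had an unadjusted p under 0.05 as well. Over all 39 kept probes of these genes 1 passed, a dimmer probe of Adam17 that was lower in knockout samples. Among all 18003 tested probes 1.78% were called, so 1 call in 39 is close to the general share. With the arrays scaled to equal medians, 1 of the 22 passed, namely Il5, and the Adam17 probe did not. In that fit 257 of all 18003 tested probes were called. The median log2 difference of the 22 genes was -0.04, and 9 were positive.

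Of the 8 other gp130 ligands, 3 were tested. Ebi3, a subunit of the cytokine IL-27, was at 0.39 ± 0.16 (SE, limma adjusted p = 0.212). Clcf1, which encodes cardiotrophin-like cytokine, was at -0.10, and Il6 at -0.04. The Il6 probe was above background on 5 of the 11 arrays. Il11, Il27, Ctf1, Ctf2 and Cntf were above background on no array. Of the other receptor chains that pair with gp130, Lifr, Osmr and Cntfr were likewise above background on no array. Il27ra, the IL-27 receptor chain, was the bright exception, at 11.84 in WT and 11.85 in knockout cells. Its log2 difference was 0.01 ± 0.10 (SE, limma adjusted p = 0.956), and its dimmer kept probe was at -0.08 (limma adjusted p = 0.756).

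Of the 10 other colony-stimulating ligands and receptors, 4 were tested. Csf2ra, the GM-CSF receptor α chain, had levels from 5.85 to 6.26 in WT and from 6.31 to 6.82 in knockout cells. The genotypes thus did not overlap, which held for 3.21% of all tested probes. The log2 difference of Csf2ra was 0.43 ± 0.12 (SE), with a limma adjusted p of 0.085, which missed the threshold. It did so in each of the 21 other fits as well (adjusted p from 0.0509 to 0.209). Csf1r, the receptor for the Csf1 product and a marker of macrophages, was at 0.36 ± 0.22 (SE, limma adjusted p = 0.409). Of the 9 myeloid markers 6 had positive differences, with a median of 0.23 over the 9. Csf1r is itself among these 6, so the set is not independent of its value. The part of myeloid cells in the values of Csf2ra and Csf1r was not tested. Il3ra, the IL-3 receptor α chain, was at -0.20 (limma adjusted p = 0.378). The β chain genes Csf2rb and Csf2rb2 were above background on no array. Il5, whose product signals through the β chain encoded by Csf2rb, was at 1.26 ± 0.40 (SE, limma adjusted p = 0.133). Its levels ran from 4.97 to 6.41 in WT and from 5.99 to 8.60 in knockout cells. The Il5 difference was 0.85 without knockout sample 5 and 0.61 on the authors' log2 values. With equal medians the Il5 difference was 1.30 and passed (limma adjusted p = 0.0459). Csf3 and Il34 were above background on no array, Il5ra on 2 and Csf3r on at most 4 by any probe.

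Of 16 genes for receptor signalling and shedding, 14 were tested, 4 had positive differences, and the median was -0.15. The kinase genes Jak1 (-0.30), Jak2 (-0.20) and Tyk2 (0.05) did not pass, nor did the transcription factor genes Stat3 (-0.03) and Stat5a (-0.16). The sign for Jak1 depended on the probe, since its dimmer kept probes were at 0.23 and -0.07 and did not pass either. So did the signs for Tyk2 (dimmer kept probes at 0.02 and -0.13) and Stat3 (0.09 and -0.08), none of which passed. The feedback inhibitor genes Socs3 (-0.04), Cish (0.09) and Socs1 (0.15), which respond to STAT signalling, did not pass either. Bcl3, a coactivator of NF-κB p50, had the smallest p of this list by brightest probes, at -0.42 ± 0.14 (SE, limma adjusted p = 0.15). Pim1, a kinase gene induced by STATs, was at -0.27. Adam17 and Adam10, proteases that can shed the IL-6 receptor, were at -0.13 and -0.30 by their brightest probes. The dimmer Adam17 probe (ILMN_1243942), singled out after its values were seen, was above background on all 11 arrays. It lay between 9.51 and 9.81 in WT and between 9.05 and 9.37 in knockout samples. There was no overlap, as for 3.21% of all tested probes. This Adam17 probe was lower in knockout samples by 0.39 ± 0.09 (SE) on the log2 scale (limma adjusted p = 0.0451). The 2 Adam17 probes thus gave different calls. Leaving out single arrays in turn removed the call of the dimmer one in 10 of 11 cases, with limma adjusted p up to 0.113, and kept it without WT sample 2 (limma adjusted p = 0.0417). Stat5b was above background on no array.

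**Figure D5:**
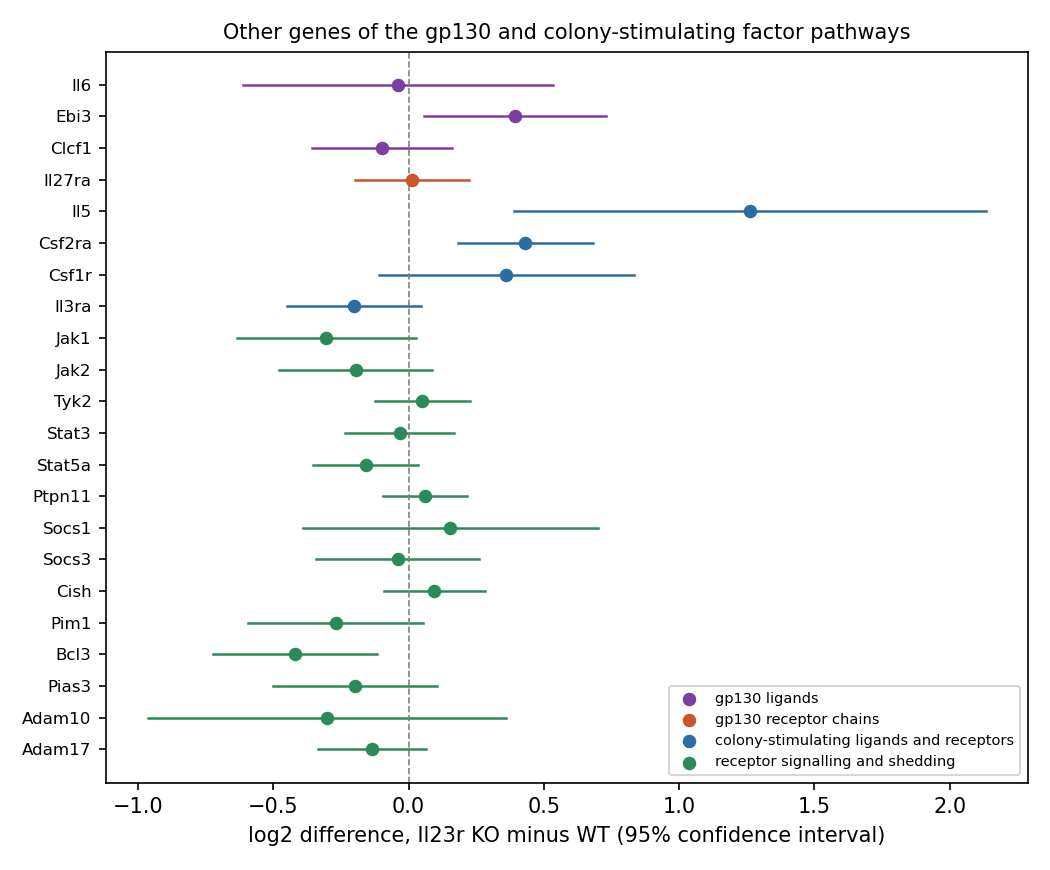
Log2 difference, Il23r KO minus WT, of the 22 tested genes of the gp130 and colony-stimulating factor pathways (points, by the brightest tested probe) with 95% confidence intervals not adjusted for the number of probes (lines), coloured by list. Il5 (1.26) lies farthest from 0 with the widest interval, and Csf2ra (0.43) and Ebi3 (0.39) follow on the higher side.

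How the tested members varied across arrays was compared next. After the mean of each genotype was subtracted, Pearson's correlation over the 11 arrays between Csf2 and Csf1 was -0.35, between Csf2 and Osm -0.16, between Csf2 and Il6st -0.15, and between Csf1 and Osm 0.40. These are descriptions of arrays that share their normalization, and so are the following. The genes named next have the highest correlations out of 9139 named genes over only 11 arrays, so their values are high by selection. The genes whose level across the 11 arrays was most like that of Csf2 by the same measure were Cyld (0.96), Sf3b5 (0.95) and Scaper (0.95). For Csf1 they were Rpp25l (0.93), Dock6 (0.93) and Lrrc1 (0.92). For Osm they were Entpd6 (0.96), Dus3l (0.95) and Impdh1 (0.94), and for Il6st they were Ifnar2 (0.91), Ctu1 (0.89) and Trim27 (0.89). None of these 12 genes was called between the genotypes, where 1.78% of all tested probes were.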

How the data were processed

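Intensities of 45281 probes on 11 Illumina bead arrays were deposited by the authors on a linear scale, with GenomeStudio 1.6.0 named in the submitters' processing notes; the values show no sign of subtraction or scaling. The deposited detection score, a fraction headed as a p-value per the file headers, rose with intensity (Spearman correlation across probes at least 0.984) and was therefore taken as the complement of the detection p. The log2 values deposited by the authors in the series value table equalled log2 intensity minus each array's 75th percentile, to within 0.000339, and this match joined bead numbers to probe names. Gene symbols came from the platform annotation: 34885 probes had 1, 18 had several and 10378 were not listed.

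Values were processed as neqc does in limma 3.58.1 (R 4.3.3), inferring negative controls from detection p-values, with an offset of 16 and quantile normalization. Probes with a detection p under 0.05 on at least 5 arrays were kept (18003). lmFit and eBayes compared genotypes, two-sided, adjusting by Benjamini-Hochberg across the kept probes, with calls at an adjusted p under 0.05. The code was tested on simulated data. Probes below the filter take their values from the fit of all probes. Pathway genes are represented by their brightest kept probe. The text names all members, up to 4 genes of each list with the smallest p and further list members by role, the comparators, and the 3 genes most like each tested member. Members, lists and comparators were chosen with earlier results of these data known, so the planned exact permutation test of the comparators against Csf2 is not reported. The slide of each array was not known, and an effect of slide cannot be told apart from genotype where a slide held 1 genotype.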

Additional observations from a re-analysis of the deposited data

How the results depend on the processing

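The 5 tested member probes kept their direction and stayed short of the threshold in every alternative run (9 or 10 settings each and the 11 fits that left out 1 array), with limma adjusted p between 0.189 and 0.98. With 1 array left out, the log2 difference ranged from 0.03 to 0.22 for Csf2, 0.01 to 0.25 for Csf1, 0.15 to 0.29 for Osm probe 1, -0.22 to -0.04 for Osm probe 2 and 0.27 to 0.52 for Il6st probe 1. Osm probe 2 failed the stricter detection filter and has no value there. The number of member probes called was 0 throughout. The count of other pathway genes called was 0 except with equal medians, where it was 1 (Il5, limma adjusted p = 0.0459); the cause was not tested. Over every kept probe of these genes in place of the brightest, an alternative chosen after seeing the data, the count was 1 (Adam17, lower); that call was lost in 10 of 11 fits without 1 array and in 4 of 10 other settings. The excess over Csf2 kept its direction for Il17a (1.45 to 1.89), Il4 (1.36 to 1.88) and Ifng (0.05 to 0.22). With replicate number fitted as a block over replicates 1 to 5, the differences were 0.16 for Csf2, 0.09 for Csf1, 0.17 and -0.17 for Osm and 0.32 for Il6st probe 1, with adjusted p of at least 0.239, and 264 probes were called against 262 without a block on the same arrays, an alternative chosen after seeing the data. Same-numbered samples correlated in their deviations from the genotype means between -0.01 and 0.30 over probes. Not every sample correlated best with its own number, so the numbers were not taken to pair samples. In both genotypes, though, the raw median was highest in sample 1 and lowest in sample 5. It was 165.3 and 107.6 in WT, and 176.7 and 117.5 in knockout samples. Whether same-numbered samples are linked was not tested further. Over all kept probes, 321 were called, and the count ran from 158 to 513 when 1 array was left out; it was 494 with array brightness as a covariate and 209 without the detection filter. Signal over background limits Il3, Lif and Il6ra, whose probes were near background on nearly all arrays.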
